A study of Mus musculus with 12 samples.

Results

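Collagens are the proteins of which most fibres and sheets of the extracellular matrix are built, and the genes described here are those that encode their chains. The members were all protein-coding genes in the deposited tables with a symbol of the form Col, a type number, the letter a and a chain number, and there were 44 of them among 57180 genes in all, of which 21400 were protein coding. Every collagen chain folds with others into a triple helix, and the chains fall into classes by what the helices then build. Fibrillar collagens (11 genes) form banded fibres, basement membrane collagens (type IV, 6 genes) form the sheets under endothelium, glia and epithelium, FACIT collagens (9 genes) sit on the surface of fibres or in basement membrane zones, and beaded filament collagens (type VI, 6 genes) form microfibrils around cells. Network collagens (types VIII and X, 3 genes) form lattices, multiplexins (types XV and XVIII, 2 genes) lie beside basement membranes, transmembrane collagens (4 genes) span the cell membrane, and 3 genes (Col7a1, Col26a1 and Col28a1) were placed in none of these. In an injured spinal cord, collagen is best known as a component of the fibrotic scar that forms in the lesion core.

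The data were bulk RNA-seq libraries of mouse spinal cord from a clip compression injury at T9-T10, and the question put by the design is whether earlier ovariectomy, the surgical removal of the ovaries and with them the main source of oestrogen, alters the lesion. The OVX8_SCI7 group was ovariectomised 8 weeks before the injury and the OVX2_SCI7 group 2 weeks before it, while the SCI7 group had the injury with no ovariectomy. All 12 libraries, 4 in each group, came from female C57BL/6J mice, from tissue reaching 0.5 cm to either side of the lesion, taken 7 days after injury. The labels call the libraries biological replicates and place them in a single batch, and they give an age of 8 weeks for every mouse without saying at which step. In OVX8_SCI7 it cannot be the age at injury or at collection. The ovariectomised groups therefore differed in age at ovariectomy, at injury or at both. This cannot be told apart from the interval after ovariectomy. How the age of SCI7 mice at injury compared with theirs is not given. No sham or uninjured cord was analysed here, so no value below is relative to uninjured tissue. In bulk tissue, fewer cells of a type and less RNA per cell cannot be told apart.

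Total counts ran between 18222809 and 31781728 per library. Markers of astrocytes, oligodendrocytes and neurons, the cells of the cord, were present in every library, with summed levels of 2507 to 6855, 9420 to 26516 and 433 to 2859 TPM (transcript abundance scaled to length and library total). The 6 sensory ganglion markers were uneven. They summed to 26.3 to 107 TPM in OVX8_SCI7, 34.1 to 477 TPM in OVX2_SCI7, highest in replicate 2, and 16.6 to 80.9 TPM in SCI7. Among them, Avil ran from 0.28 TPM in SCI7 replicate 1 to 74.2 TPM in OVX2_SCI7 replicate 2. Their part in the collagen differences was not tested. The share of counts on mitochondrial genes was 2.2 to 3.36% in OVX8_SCI7, 2.36 to 8.33% in OVX2_SCI7 and 5.35 to 9.35% in SCI7. The libraries also stood apart by base composition. Within each library, the Spearman correlation across 12416 genes between a gene's GC content and its level relative to the mean of all libraries was 0.18 to 0.87 in OVX8_SCI7, -0.44 to 0.54 in OVX2_SCI7 with replicate 1 alone below 0, and -0.85 to -0.53 in SCI7. OVX2_SCI7 replicate 1 was thus on the side of the SCI7 libraries in both measures. What this trend contributes to any difference described below was not tested. A correction for it was an offset per gene and library fitted to GC content and transcript length. Member and pathway calls, medians over all members and chain ratios are given with and without this correction. Marker calls, the pathway median and most single-gene estimates are given without it. With it, edgeR called 0 of 17820 genes in OVX8_SCI7 against SCI7. Summed levels and shares are given as deposited, without this correction. Chain ratios with the correction are also on another scale than those without it, as stated there.

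Collagen genes are also set apart by their sequence. A triple helix needs a glycine as the first of every 3 residues, and glycine codons begin with GG. The helical part of a collagen coding sequence is therefore built of 9-base units that each open with GGN, in rows whose length differs between members. The longest unbroken row had 338 units in Col1a1, 339 in Col1a2 and 344 in Col3a1, 113 in Col9a2 and in Col9a3, 61 in Col8a1 and 60 in Col8a2. Among the other members it ran from 339 units in Col2a1 and Col5a2 down to 23 in Col26a1, with 45 in Col6a3 and 32 in Col12a1. The stretches that follow are 10 consecutive units from each of 6 chains, shown as the type I and III chains that dominate the sums, the called member with the smallest p, and a pair of type VIII chains that differ in GC content, read from the spliced coding exons of the GENCODE vM21 annotation on GRCm38, 5′ to 3′ on the coding strand, with the GGN codon that opens each unit in capitals. They lie at chr11:94939451-94939939 on the plus strand (Col1a1, codons 168 to 197, across 3 exons), chr6:4512406-4515516 on the plus strand (Col1a2, codons 97 to 126, 3 exons), chr1:45323762-45325413 on the plus strand (Col3a1, codons 164 to 193, 2 exons), chr17:34051274-34051524 on the plus strand (Col11a2, codons 401 to 430, 2 exons), chr16:57628003-57628092 on the minus strand (Col8a1, codons 352 to 381, 1 exon) and chr4:126311132-126311221 on the plus strand (Col8a2, codons 312 to 341, 1 exon).
Col1a1: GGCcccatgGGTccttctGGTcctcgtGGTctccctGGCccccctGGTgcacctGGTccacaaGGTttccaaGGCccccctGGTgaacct
Col1a2: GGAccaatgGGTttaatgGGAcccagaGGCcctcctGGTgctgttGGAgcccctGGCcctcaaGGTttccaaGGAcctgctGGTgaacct
Col3a1: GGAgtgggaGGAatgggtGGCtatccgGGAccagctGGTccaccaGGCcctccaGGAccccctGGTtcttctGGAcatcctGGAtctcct
Col11a2: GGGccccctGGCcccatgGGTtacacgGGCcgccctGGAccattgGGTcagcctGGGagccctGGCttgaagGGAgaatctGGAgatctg
Col8a1: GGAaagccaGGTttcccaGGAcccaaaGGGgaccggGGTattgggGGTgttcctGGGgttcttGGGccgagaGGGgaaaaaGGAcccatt
Col8a2: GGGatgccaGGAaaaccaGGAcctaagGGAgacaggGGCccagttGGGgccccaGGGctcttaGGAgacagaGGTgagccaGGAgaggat
The 90 bases were 66.7% G or C in Col1a1 and Col11a2, 63.3% in Col3a1, 62.2% in Col8a2 and 60.0% in Col1a2 and Col8a1. Over whole transcripts the members had a median GC content of 55.1%, against 50.2% over 15087 genes, and 75.1% of those genes lay below the median member.

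Collagen transcripts were abundant in the lesion of every group, but their level varied widely between libraries of a group. The summed level of the 44 genes was 4361, 5406, 4219.8 and 8151 TPM in OVX8_SCI7, 575, 1494, 10491 and 3094 TPM in OVX2_SCI7, and 2298, 4145, 679.7 and 4389.7 TPM in SCI7. The OVX8_SCI7 libraries lay toward the top, whereas OVX2_SCI7 held both the lowest and the highest of all 12 libraries, and the 3 groups overlapped. The mean was 5535 ± 1823 TPM in OVX8_SCI7, 3913 ± 4507 TPM in OVX2_SCI7 and 2878 ± 1738 TPM in SCI7 (SD, n = 4 each). The ratio of means to SCI7 was 1.92 for OVX8_SCI7, with a range of 1.53 to 2.33 when 1 library was left out. For OVX2_SCI7 it was 1.36, and it ranged between 0.598, below 1 without OVX2_SCI7 replicate 3, and 1.75.

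**Figure D1:**
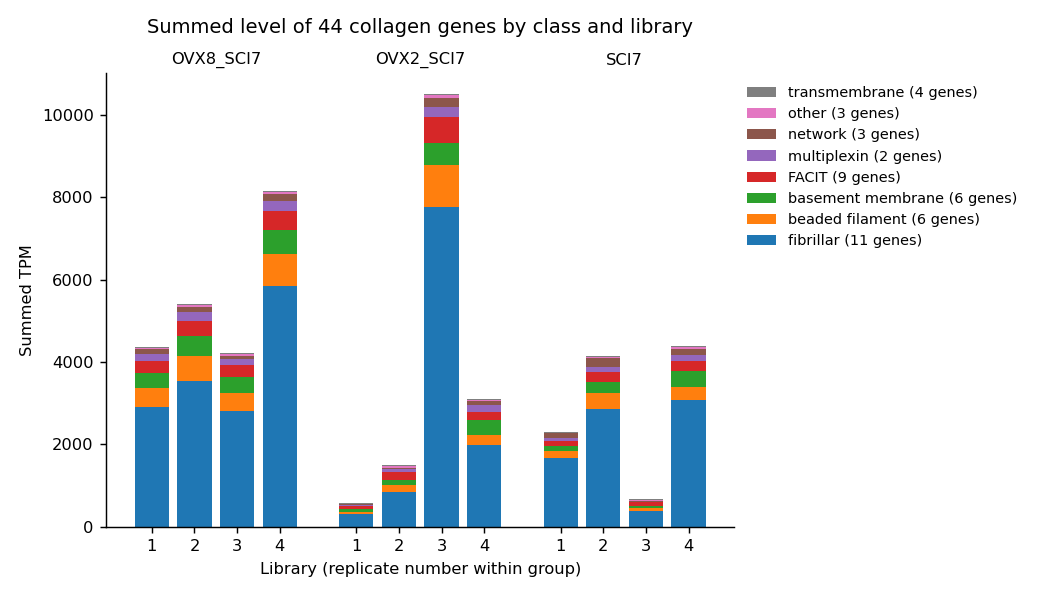
Summed level of the 44 collagen genes in TPM (y axis) in each of the 12 libraries (bars, grouped as OVX8_SCI7, OVX2_SCI7 and SCI7), with the bars split by collagen class. OVX2_SCI7 replicate 3 (10491 TPM) and replicate 1 (575 TPM) are the highest and the lowest bars of all, and the fibrillar class is the largest piece of each bar.

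Markers of cell types that could accompany collagen also differed between libraries, and not all ran with these sums. The summed level of 9 fibroblast markers was 724 to 1388 TPM in OVX8_SCI7, highest in replicate 4, 274 TPM in replicate 1 and 1313 TPM in replicate 3 of OVX2_SCI7, and 375 to 973 TPM in SCI7, lowest in replicate 3. Of these 9 markers 1 (Pi16) was called higher in OVX8_SCI7 than in SCI7, beside 11.9% of all tested genes. All 9 were above 0 in every library. In OVX2_SCI7 the lowest and the highest library for these markers were those lowest and highest in collagen. Neuron markers ran the other way, with 433 TPM in OVX2_SCI7 replicate 3, 2714 TPM in OVX2_SCI7 replicate 1 and 2859 TPM in SCI7 replicate 3. The 4 macrophage and microglia markers summed to 1310 to 1418 TPM in OVX8_SCI7, 437 to 1499 TPM in OVX2_SCI7, highest in replicate 4, and 270 to 1007 TPM in SCI7. Of these 4, 1 (Csf1r) was called higher in OVX8_SCI7 than in SCI7 (log2 fold change 0.70, edgeR adjusted p = 0.0205). Of 7 pericyte markers, 3 were called higher in OVX8_SCI7 (Kcnj8, Vtn and Notch3), beside the same 11.9% of all genes. Rgs5 and Abcc9 had estimates below 0 (log2 fold changes of -0.67 and -0.53) that did not pass. Together the 7 summed to 290 to 421, 238 to 354 and 240 to 399 TPM in the same order. The 4 smooth muscle markers summed to 86.9 to 152, 78.0 to 141 and 113 to 546 TPM and the 5 endothelial markers to 185 to 255, 133 to 238 and 116 to 272 TPM, with none called in either list. How much of the collagen differences these markers account for was not tested.

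Single libraries carried many genes at once. In TPM, OVX2_SCI7 replicate 3 was the highest of the 12 libraries for 18 of the 44 genes. In CPM (normalised counts scaled to library total) it was the highest of its group for 35 of the 43 that passed the low-count filter. Counts over the 12 libraries are in TPM here and counts within a group in CPM, so they are not on 1 scale. OVX2_SCI7 replicate 1 was the lowest of the 12 for 20 genes in TPM and the lowest of its group for 38 of 43 in CPM. Replicate 3 of SCI7 was the lowest of its group in CPM for 30 of 43, and replicate 4 of OVX8_SCI7 the highest of its group for 22 of 43.

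Fibrillar collagens made up 55.1 to 73.9% of collagen TPM in every library, and types I and III, the main fibres of scar, skin and tendon, 45.3 to 68.6%. Col3a1, the single chain of type III, had the highest mean level of all members. Col3a1 had 882, 986, 883 and 2266 TPM in OVX8_SCI7, 121, 253, 2389 and 652 TPM in OVX2_SCI7, and 736, 1189.5, 144 and 1117 TPM in SCI7. Its groups overlapped in TPM, with 1 library far above the rest in each ovariectomised group, while in CPM all OVX8_SCI7 libraries (2222 to 4666) lay above all SCI7 libraries (221 to 1928.5). Col1a1, the chain present in double dose in type I collagen, had 898, 1139.5, 856 and 1463 TPM in OVX8_SCI7, 55.7, 215, 2534 and 575 TPM in OVX2_SCI7, and 292, 546, 58.6 and 685 TPM in SCI7. Its OVX8_SCI7 libraries were all above its SCI7 libraries, and its OVX2_SCI7 libraries reached both below and above every other. Col1a2, the partner chain of type I, had 868, 1035, 802 and 1610.5 TPM in OVX8_SCI7, 83.7, 252, 2271 and 570.0 TPM in OVX2_SCI7, and 476, 829, 114 and 898 TPM in SCI7, and all 3 groups overlapped.

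None of these 3 genes passed the test in any comparison. Genes were tested with edgeR's quasi-likelihood test on the 17820 genes that passed the filter, with Benjamini-Hochberg adjustment over all of them and a threshold of 0.05, and fold changes below are log2 values from that fit. For OVX8_SCI7 against SCI7, Col1a1 differed by 1.51 (SE 0.97, edgeR adjusted p = 0.248), Col3a1 by 1.31 (SE 0.92, edgeR adjusted p = 0.290) and Col1a2 by 0.95 (SE 0.87, edgeR adjusted p = 0.415). For OVX2_SCI7 against SCI7 the corresponding values were 1.36 for Col1a1, 1.01 for Col3a1 and 0.72 for Col1a2, with adjusted p between 0.338 and 0.578. The standard errors show how wide these estimates are: across tested members the median SE was 0.49, against 0.26 over all genes. Within groups the coefficient of variation of TPM was 77.1% for Col1a1 and 78.9% for Col3a1, whereas Col9a3, the steadiest of the called members, had 23.3%.

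**Figure D2:**
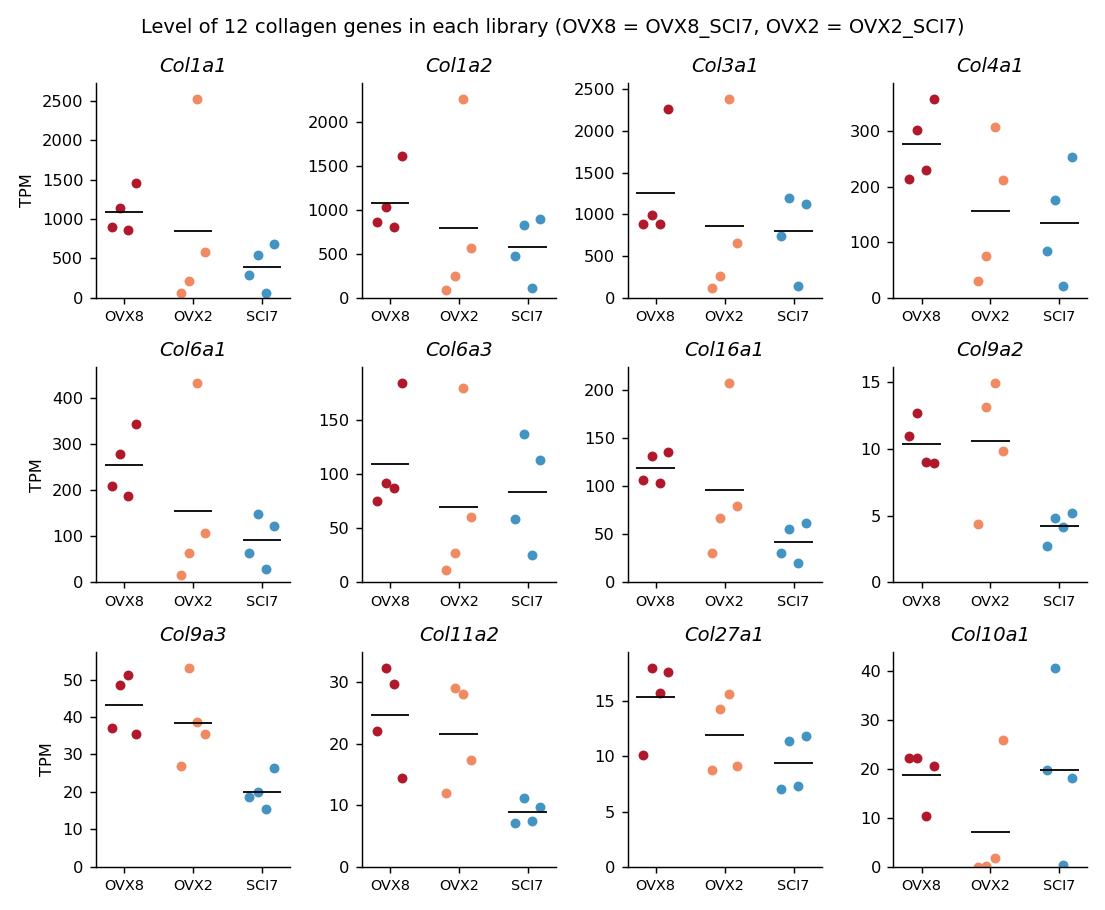
Level in TPM (y axes, each from 0) of 12 collagen genes, with a dot for each library and a line for the group mean, in the order OVX8_SCI7, OVX2_SCI7, SCI7. The SCI7 dots of Col9a3 and Col11a2 lie close together and below the dots of both other groups, while those of Col1a1, Col3a1 and Col10a1 are spread widely within OVX2_SCI7.

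The collagens that did pass the test in OVX8_SCI7 against SCI7 were 3 FACIT chains, 2 minor fibrillar chains and 1 type VI chain, and all of them were higher in OVX8_SCI7. They numbered 6 of 43 tested members, or 13.95%, and 11.9% of all tested genes were called higher in that comparison, or 27.5% in either direction. No member was called lower, against 15.6% of all genes. The share called higher is thus close to that of all genes and is not a result particular to collagens. The 6 were Col11a2, Col9a3, Col9a2, Col27a1, Col16a1 and Col6a6, and they lie on chromosome 17 (Col11a2), 2 (Col9a3), 4 (Col9a2, Col27a1 and Col16a1) and 9 (Col6a6). In all 6 the CPM (normalised counts scaled to library total) of the 4 OVX8_SCI7 libraries lay above those of the 4 SCI7 libraries.

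Col11a2 encodes a chain of type XI collagen, the minor fibrillar collagen found inside cartilage fibres. It had 22.1, 32.3, 29.7 and 14.4 TPM in OVX8_SCI7, 11.9, 29.1, 28.1 and 17.4 TPM in OVX2_SCI7, and 7.12, 11.2, 7.43 and 9.73 TPM in SCI7. All SCI7 libraries were below all libraries of both ovariectomised groups. The difference between OVX8_SCI7 and SCI7 was 1.24 (SE 0.25, edgeR adjusted p = 0.0143), and that between OVX2_SCI7 and SCI7 was 1.20 (SE 0.25, edgeR adjusted p = 0.052), just short of passing.

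Col9a3 and Col9a2 are chains of type IX collagen, a FACIT collagen of cartilage fibres. Col9a3 had 37.2, 48.5, 51.1 and 35.5 TPM in OVX8_SCI7, 26.8, 53.1, 38.6 and 35.4 TPM in OVX2_SCI7, and 18.6, 19.99, 15.3 and 26.4 TPM in SCI7. SCI7 was again the lowest group without overlap, and the difference was 0.97 for OVX8_SCI7 (SE 0.24, edgeR adjusted p = 0.0169) and 0.97 for OVX2_SCI7 (SE 0.24, edgeR adjusted p = 0.052). Col9a2 had 10.98, 12.7, 9.01 and 8.92 TPM in OVX8_SCI7, 4.34, 13.2, 14.9 and 9.86 TPM in OVX2_SCI7, and 2.72, 4.85, 4.16 and 5.19 TPM in SCI7. OVX8_SCI7 was above SCI7 throughout, by 1.17 (SE 0.38, edgeR adjusted p = 0.039), and replicate 1 of OVX2_SCI7 alone of its group lay within the SCI7 range. The other type IX chain, Col9a1, was at 0.51 to 1.29 TPM in all 12 libraries, with a difference of -0.05 (SE 0.30, edgeR adjusted p = 0.909). In GENCODE vM21 the exons of Col9a3 share 234 bases with Tcfl5 on the opposite strand, and whether the counting used strand is not given in the sources used here.

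Col27a1 encodes a fibrillar collagen of cartilage and its longest GGN row had 217 units. It had 10.1, 18, 15.8 and 17.6 TPM in OVX8_SCI7, 8.75, 14.3, 15.6 and 9.08 TPM in OVX2_SCI7, and 7.03, 11.4, 7.28 and 11.8 TPM in SCI7. On this scale 1 OVX8_SCI7 library fell within the SCI7 range, whereas in CPM there was no overlap (36.8 to 50.9 in OVX8_SCI7, 17.1 to 28.3 in SCI7), and the difference was 0.94 (SE 0.27, edgeR adjusted p = 0.0255). Col16a1 encodes a FACIT collagen that links cells and matrix, and it was the most abundant of the 6. It had 106, 131, 103 and 135 TPM in OVX8_SCI7, 30.4, 66.6, 207 and 79.3 TPM in OVX2_SCI7, and 30.2, 55.0, 20.4 and 61.8 TPM in SCI7. The difference between OVX8_SCI7 and SCI7 was 1.81 (SE 0.61, edgeR adjusted p = 0.0439).
Col6a6, a type VI chain, was at a low level, with 0.22 to 0.38 TPM in OVX8_SCI7, 0.27 to 0.45 TPM in OVX2_SCI7 and 0.13 to 0.24 TPM in SCI7. Its difference was 0.77 (SE 0.26, edgeR adjusted p = 0.0444), and its exons share 63 bases with another gene on the opposite strand.

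These 6 calls did not hold under every setting. With the GC and length offset none of the 6 passed, their differences were 0.33 for Col11a2, 0.20 for Col9a3, 0.25 for Col9a2, 0.23 for Col27a1, 1.02 for Col16a1 and 0.51 for Col6a6, with adjusted p of 0.308 to 0.679, and edgeR then called 0 of all tested genes in this comparison. Without OVX8_SCI7 replicate 2, none of the 6 and 0 of 18130 tested genes passed. That library was the deepest, and it also had the highest GC correlation (0.87) and the lowest mitochondrial share (2.2%) of the 12. Fitting the 8 libraries of the comparison alone called 19 members higher and 2 lower (Col25a1 and Col4a3), beside 20.4% and 22.5% of all genes. Of the 12 fits that left out 1 library, Col11a2 passed in 11, Col9a3 in 10, Col27a1 in 8, Col16a1 and Col9a2 in 4 each and Col6a6 in 3.

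Markers that go with cartilage collagens were given the same look. The 7 cartilage markers summed to 22.9 to 45.4 TPM in OVX8_SCI7, 12.3 to 63.9 TPM in OVX2_SCI7 and 12.9 to 56.7 TPM in SCI7, with overlap throughout. None of the 6 that could be tested was called, and Matn1, a matrix protein of cartilage, stayed at 0.1 to 0.7 TPM in all 12 libraries. The 4 Schwann cell markers summed to 495 to 1049, 435 to 1479 and 280 to 665 TPM, and the 5 bone markers to 15.4 to 19.9, 14.8 to 30.0 and 13.03 to 16.9 TPM, in OVX8_SCI7, OVX2_SCI7 and SCI7, with none called in either list. Of 7 skeletal muscle markers 2 (Myh4 and Actn3) were called higher in OVX8_SCI7 than in SCI7, beside 11.9% of all tested genes. The 7 summed to 9.41 to 99.0, 3.23 to 25.9 and 8.77 to 31.5 TPM in the same order. The part of these cells in the collagen differences was not tested.

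Across all members, most estimates were above 0 in both comparisons with SCI7, which share their control libraries. In OVX8_SCI7 against SCI7, 35 of 43 log2 fold changes were positive with a median of 0.95, while the median of all tested genes was 0.01. The 4 libraries of each group did not overlap in CPM for 21 members in the higher direction and for 1, Col4a3, in the lower, against 19.6% of all genes in each direction. At an unadjusted p under 0.05 there were 15 members, against 43.2% of all genes. In OVX2_SCI7 against SCI7, 35 of 43 were again positive with a median of 0.66, against 0.04 for all genes. With the GC and length offset the member medians were 0.39 for OVX8_SCI7 and 0.31 for OVX2_SCI7. In OVX8_SCI7 against SCI7 the offset estimate was 0.85 for Col1a1, 0.47 for Col1a2, 0.69 for Col4a1, 0.64 for Col4a2, 0.75 for Col18a1 and 0.67 for Col8a2, each over 1.5 times smaller than without it.

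**Figure D3:**
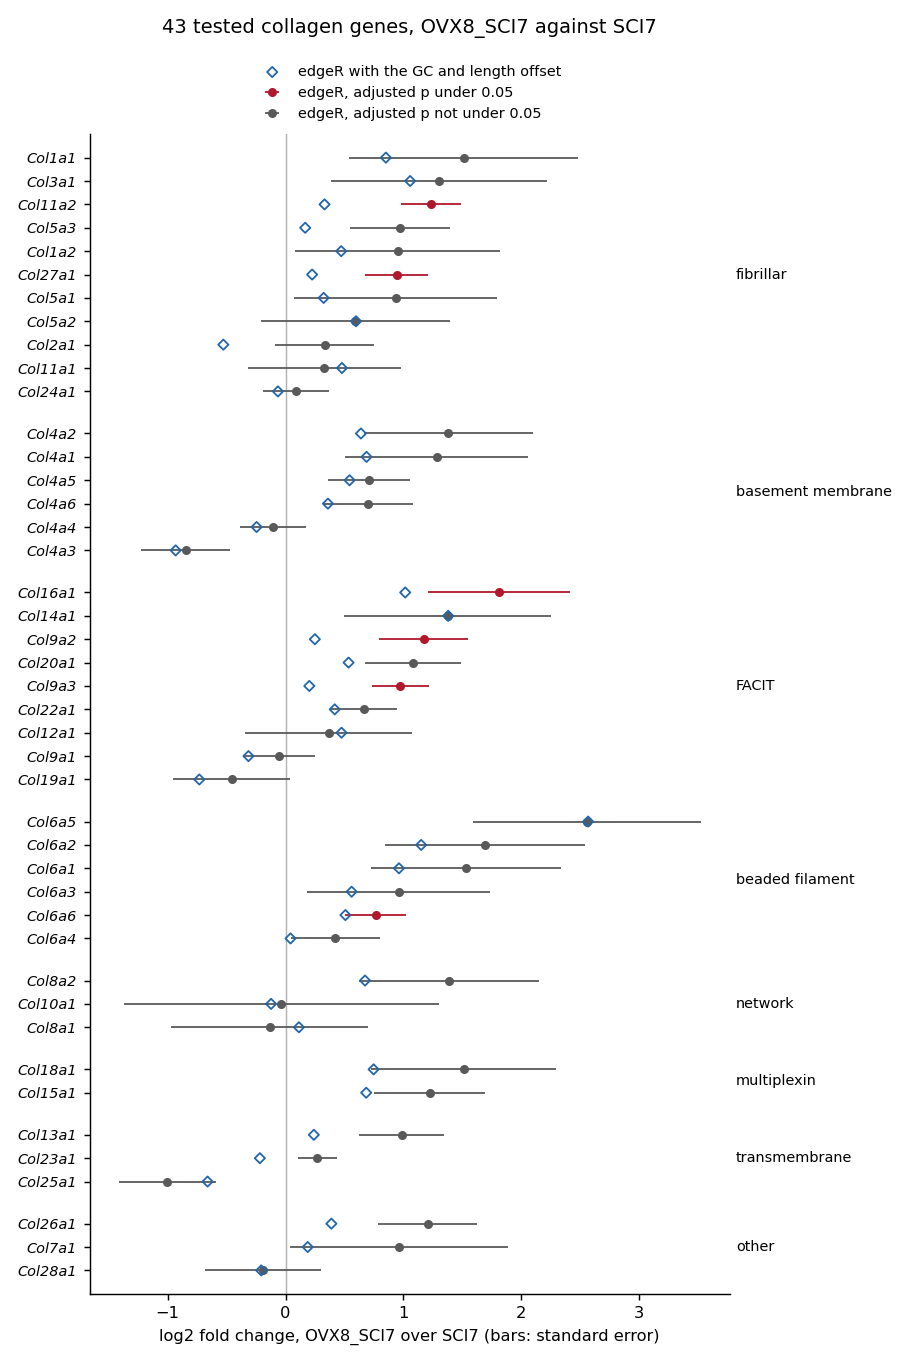
Log2 fold change of OVX8_SCI7 over SCI7 (x axis) for the 43 tested collagen genes (down the page, by class), with the edgeR estimate and its standard error as a dot with a bar, red where the adjusted p was under 0.05, and the estimate with the GC and length offset as an open diamond. Of the 43 dots 35 are right of 0, the 6 red ones have short bars except Col16a1, and the bars are long on Col1a1, Col3a1 and most type VI chains.

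The base composition of the members went along with these estimates. Over 15087 genes the Spearman correlation between GC content and the OVX8_SCI7 against SCI7 log2 fold change was 0.82, and over the 43 members it was 0.58, or 0.15 with the offset. Genes are not independent replicates, so these values describe the 2 sets of libraries. Among the 22 members with 55.1% GC or more, all 22 estimates were above 0 with a median of 1.19 and 5 were called. Among the 21 below it, 13 were above 0 with a median of 0.37 and 1, Col6a6, was called. With the offset the medians of the 2 sets were 0.43 and 0.36.

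**Figure D4:**
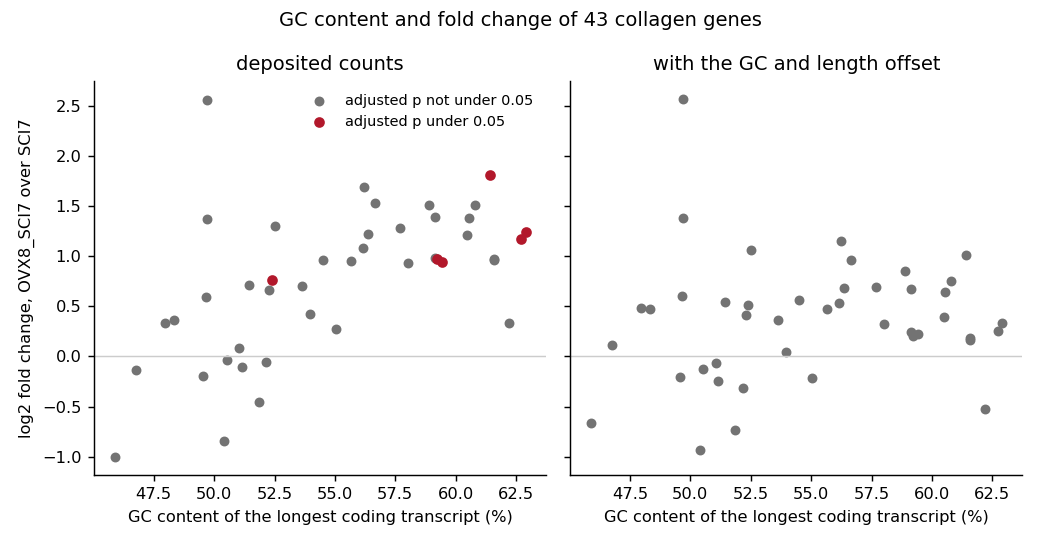
Log2 fold change of OVX8_SCI7 over SCI7 (y axis) against the GC content of the transcript in percent (x axis) for the 43 tested collagen genes, a dot each, in the fit to the deposited counts (left, red where the adjusted p was under 0.05) and with the GC and length offset (right). On the left all genes from 55.1% GC upward are above 0 and 5 of the 6 red dots are among them, while on the right no dot is red and the slope is weaker (Spearman 0.58 on the left and 0.15 on the right).

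The basement membrane chains showed a wide range and no call. Col4a1 and Col4a2 form the main type IV network of vessels and glial borders and are neighbours on chromosome 8. Col4a1 had 214, 303, 231 and 359 TPM in OVX8_SCI7, 29.6, 74.2, 309 and 211 TPM in OVX2_SCI7, and 84.9, 176, 20.5 and 254 TPM in SCI7, and Col4a2 had 139.8, 177, 127 and 187 TPM in OVX8_SCI7, 20.4, 47.3, 207 and 132 TPM in OVX2_SCI7, and 40.0, 78.5, 14.1 and 121 TPM in SCI7. The Col4a2 libraries of OVX8_SCI7 were all above those of SCI7, and those of Col4a1 overlapped in TPM but not in CPM (719.9 to 1077 in OVX8_SCI7, 61.8 to 714 in SCI7). Neither difference passed, at 1.28 for Col4a1 (SE 0.77, edgeR adjusted p = 0.220) and 1.38 for Col4a2 (SE 0.71, edgeR adjusted p = 0.156).
Of the minor type IV chains, Col4a5 was at 6.65 to 24.1 TPM and Col4a6 at 1.36 to 7.58 TPM over the 12 libraries, with differences of 0.71 and 0.70 that did not pass. Col4a3 and Col4a4, the chains of the kidney, lung and inner ear membrane, were near 0. Col4a3 had 0.16, 0.25, 0.23 and 0.31 TPM in OVX8_SCI7, 1.07, 0.57, 0.14 and 0.25 TPM in OVX2_SCI7, and 0.42, 0.44, 0.55 and 0.33 TPM in SCI7. It was the 1 member whose OVX8_SCI7 libraries all lay below SCI7, by -0.85 (SE 0.38, edgeR adjusted p = 0.106), and its exons share 563 bases with C430014B12Rik on the opposite strand.

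The remaining fibrillar chains were intermediate. Col5a1 and Col5a2, the type V chains that set fibre diameter, were at 95.4 to 233 and 73.4 to 150.3 TPM in OVX8_SCI7, 13.5 to 258 and 8.46 to 168 TPM in OVX2_SCI7, and 16.6 to 173 and 16.03 to 121 TPM in SCI7, with differences of 0.94 and 0.59 for OVX8_SCI7 against SCI7 and adjusted p of 0.420 and 0.594. Col5a3 was lower, at 13.98 to 22.2, 4.86 to 19.8 and 4.54 to 15.2 TPM, with a difference of 0.97 (SE 0.42, edgeR adjusted p = 0.101). Col11a1, the partner of Col11a2, was at 26.1 to 58.3 TPM in OVX8_SCI7, 7.54 to 69.3 TPM in OVX2_SCI7 and 13.7 to 39.2 TPM in SCI7, and differed by 0.33 (SE 0.65, edgeR adjusted p = 0.720).
Col2a1, the main collagen of cartilage, and Col24a1, a fibrillar collagen known from developing bone, were near the bottom. Col2a1 averaged 1.38 ± 0.33 TPM in OVX8_SCI7, 1.37 ± 0.38 TPM in OVX2_SCI7 and 1.92 ± 1.07 TPM in SCI7, and Col24a1 averaged 1.01 ± 0.62, 1.01 ± 0.17 and 1.64 ± 0.51 TPM (SD, n = 4 each). Both were lower in OVX8_SCI7 on the TPM scale, while their count-based estimates were 0.33 and 0.09, so the direction depended on the scale.

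Type VI collagen anchors cells to the surrounding matrix. Its class median, 1.25, was the highest among classes of more than 2 genes (0.76 with the GC and length offset), and 1 member, Col6a6, was called. Col6a1 had 209, 279.6, 189 and 345 TPM in OVX8_SCI7, 16.5, 64.2, 433 and 106 TPM in OVX2_SCI7, and 63.7, 149, 29.2 and 122 TPM in SCI7. OVX8_SCI7 was above SCI7 without overlap, by 1.53 (SE 0.81, edgeR adjusted p = 0.165). Col6a2 had 146 to 256, 10.7 to 394 and 20.4 to 107 TPM in OVX8_SCI7, OVX2_SCI7 and SCI7, with a difference of 1.69 (SE 0.85, edgeR adjusted p = 0.146), and Col6a3, the long chain, 74.7 to 184, 10.9 to 179 and 25.0 to 137 TPM, with a difference of 0.96 (SE 0.78, edgeR adjusted p = 0.359).
Col6a5, a low-level chain, had the largest estimate of the 43, at 2.56 (SE 0.97, edgeR adjusted p = 0.0657). It had 3.07, 2.25, 4.12 and 3.88 TPM in OVX8_SCI7, 0.10, 0.81, 5.64 and 1.92 TPM in OVX2_SCI7, and 0.37, 1.63, 0.27 and 0.48 TPM in SCI7. All OVX8_SCI7 libraries lay above SCI7, and its estimate with the offset, 2.57, hardly differed, although its adjusted p was then 0.269.

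Among the other FACIT collagens, Col12a1, which coats type I fibres and had the highest mean level of the class, was at 79.9 to 186 TPM in OVX8_SCI7, 18.1 to 246 TPM in OVX2_SCI7 and 33.6 to 126 TPM in SCI7, with a difference of 0.37 (SE 0.71, edgeR adjusted p = 0.715). Col14a1, a related coat protein, was at 28.7 to 79.9, 2.99 to 113 and 5.46 to 29.4 TPM, with a difference of 1.38 (SE 0.88, edgeR adjusted p = 0.244). Col20a1, at 7.99 to 10.7, 3.19 to 11.4 and 1.88 to 6.18 TPM, differed by 1.08 and Col22a1, at 1.05 to 1.74, 1.20 to 2.02 and 0.37 to 0.91 TPM, by 0.66, neither past the threshold. Col19a1 was at 0.19 to 1.24 TPM over all libraries.

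The multiplexins Col15a1 and Col18a1, whose carboxy-terminal fragments are known as inhibitors of vessel growth (endostatin in the case of Col18a1), were above SCI7 in all OVX8_SCI7 libraries in CPM. Col18a1 had 138, 174, 114 and 168 TPM in OVX8_SCI7, 10.8, 40.1, 185 and 119 TPM in OVX2_SCI7, and 37.9, 74.3, 9.70 and 96.3 TPM in SCI7, a difference of 1.51 for OVX8_SCI7 (SE 0.79, edgeR adjusted p = 0.158). Col15a1 averaged 48.4 ± 15.6, 39.8 ± 18.7 and 29.4 ± 14.8 TPM (SD, n = 4 each) in OVX8_SCI7, OVX2_SCI7 and SCI7, a difference of 1.22 (SE 0.47, edgeR adjusted p = 0.0689).

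The network collagens took up a smaller share of collagen RNA in the ovariectomised groups than in SCI7. Their share of summed collagen TPM was 2.56, 2.37, 2.08 and 2.24% in OVX8_SCI7, 1.66, 1.65, 2.12 and 2.60% in OVX2_SCI7, and 4.90, 4.90, 3.69 and 3.22% in SCI7. All SCI7 libraries were above all others. The summed level of the class itself was 127 ± 40.4 TPM in OVX8_SCI7, 84.3 ± 97.0 TPM in OVX2_SCI7 and 121 ± 74.0 TPM in SCI7 (SD, n = 4 each), so in OVX8_SCI7 the share was smaller while the level was not. The larger part of this class was Col8a1, a chain of the vessel wall and cornea, at 58.2 to 122 TPM in OVX8_SCI7, 6.58 to 146 TPM in OVX2_SCI7 and 18.9 to 148 TPM in SCI7, with a difference of -0.14 (SE 0.84, edgeR adjusted p = 0.915). Its GC content, 46.8%, was among the lowest of the members, while its partner Col8a2, with 59.1%, differed by 1.39 (SE 0.77, edgeR adjusted p = 0.183).
Col10a1, the collagen of hypertrophic cartilage, varied most. It had 22.2, 22.1, 10.3 and 20.7 TPM in OVX8_SCI7, 0.03, 0.18, 1.85 and 26.0 TPM in OVX2_SCI7, and 19.9, 40.6, 0.36 and 18.1 TPM in SCI7. All 4 OVX8_SCI7 libraries held it, while 3 OVX2_SCI7 libraries and 1 SCI7 library were at or below 1.85 TPM, a within-group coefficient of variation of 98.2%. Its difference was -0.04 (SE 1.34) for OVX8_SCI7 and -1.27 (SE 1.37) for OVX2_SCI7 against SCI7, with adjusted p of 0.987 and 0.530, and its exons share 18 bases with Nt5dc1 on the opposite strand.

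Of the transmembrane collagens, Col23a1 was the steadiest member of all 44, at 12.9 to 17.99 TPM in OVX8_SCI7, 11.3 to 22.8 TPM in OVX2_SCI7 and 11.8 to 16.4 TPM in SCI7, a within-group coefficient of variation of 22%. Col25a1, known from neurons and needed in mice for motor innervation of muscle, was the member with the lowest estimate. It had 3.09, 3.95, 4.69 and 3.13 TPM in OVX8_SCI7, 6.05, 5.41, 1.86 and 2.33 TPM in OVX2_SCI7, and 5.60, 5.73, 11.8 and 3.01 TPM in SCI7. Its groups overlapped in TPM, and the difference of -1.0 for OVX8_SCI7 (SE 0.41, edgeR adjusted p = 0.0852) did not pass. Col25a1 was highest and the neuron markers were highest (2859 TPM) in the same library, SCI7 replicate 3, and their part in its difference was not tested. Col13a1, found at neuromuscular junctions, was at 0.80 to 2.35 TPM over the 12 libraries, and Col17a1, a collagen of skin hemidesmosomes, was at most 0.27 TPM and was the 1 member that did not pass the count filter. Together with Col4a4, Col6a4 and Col6a6 it made 4 members under 1 TPM in all 12 libraries.
The 3 unclassed genes were Col7a1, the anchoring fibril of skin, at 20.7 to 35.4, 2.50 to 47.0 and 4.09 to 52.4 TPM in OVX8_SCI7, OVX2_SCI7 and SCI7, Col28a1, at 4.12 to 5.87, 2.47 to 13.1 and 3.42 to 10.6 TPM, and Col26a1, at 5.78 to 8.60, 2.42 to 8.59 and 3.03 to 4.40 TPM. Col26a1 just failed to pass in OVX8_SCI7 against SCI7, at 1.21 (SE 0.42, edgeR adjusted p = 0.0504), and its 4 OVX8_SCI7 libraries were all above SCI7.

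Chains of 1 collagen type are made to be assembled together, so their ratio within a library removes the difference in overall collagen level. The Col1a1 to Col1a2 ratio in TPM was 1.03, 1.10, 1.07 and 0.908 in OVX8_SCI7, 0.666, 0.855, 1.12 and 1.01 in OVX2_SCI7, and 0.614, 0.658, 0.515 and 0.762 in SCI7. Every OVX8_SCI7 library had a higher ratio than every SCI7 library, and the same held for the sum of the 2 chains, at 1658 to 3073 TPM in OVX8_SCI7 and 172 to 1584 TPM in SCI7, with 139 to 4804 TPM in OVX2_SCI7. The ratio of group means was 1.61 in TPM, and 1.40 in CPM after the GC and length offset. The ratios with the offset below are likewise from CPM and those without it from TPM. How much of each shift is due to the unit and how much to the offset was not tested. Col6a1 over Col6a3 was 2.80, 3.05, 2.18 and 1.88 in OVX8_SCI7, 1.52, 2.35, 2.42 and 1.75 in OVX2_SCI7, and 1.09, 1.09, 1.17 and 1.08 in SCI7. In TPM, SCI7 was thus below both other groups. In CPM, OVX2_SCI7 and SCI7 overlapped: Col6a1 and Col6a3 had 289 and 243 in OVX2_SCI7 replicate 4, and 168 and 124 in SCI7 replicate 1. The ratio of means of Col6a1 over Col6a3 for OVX8_SCI7 over SCI7 was 2.24 in TPM, and 1.23 in CPM with the offset.
Col8a2 over Col8a1 averaged 0.355 ± 0.059 in OVX8_SCI7, 0.508 ± 0.211 in OVX2_SCI7 and 0.162 ± 0.096 in SCI7 (SD, n = 4 each). The ratio of the OVX8_SCI7 to the SCI7 mean was 2.2 in TPM, and 1.08 in CPM with the offset. Col1a1 over Col3a1, which are chains of different types, averaged 0.947 ± 0.216, 0.814 ± 0.253 and 0.469 ± 0.0998 in the same order. Its ratio of means was 2.02 in TPM and on the other side of 1, at 0.908, in CPM with the offset. In each of these 4 pairs the chain on top has the higher GC content (58.9% for Col1a1, 55.7% for Col1a2, 52.5% for Col3a1, 56.7% for Col6a1, 54.5% for Col6a3). Col5a1 (58.0% GC) over Col5a2 (49.6%) also has the higher GC content on top. It averaged 1.42 ± 0.20, 1.45 ± 0.14 and 1.21 ± 0.18 in the same order, with overlap. Its ratio of OVX8_SCI7 to SCI7 means was 1.17 in TPM, and 0.85 in CPM with the offset. In the other pairs shown the mean was highest in SCI7. These were Col6a1 over Col6a2, at 1.26 ± 0.08, 1.24 ± 0.22 and 1.42 ± 0.02, with every OVX8_SCI7 library (1.18 to 1.35) below every SCI7 library (1.39 to 1.43), and Col4a1 over Col4a2, at 1.75 ± 0.17, 1.53 ± 0.07 and 1.98 ± 0.36, with overlap. For Col6a1 (56.7% GC) over Col6a2 (56.2%) the ratio of OVX8_SCI7 to SCI7 means was 0.887, and 0.871 in CPM with the offset. For Col4a1 (57.7% GC) over Col4a2 (60.6%) it was 0.881, and 1.10 in CPM with the offset. No test was made on ratios.

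**Figure D5:**
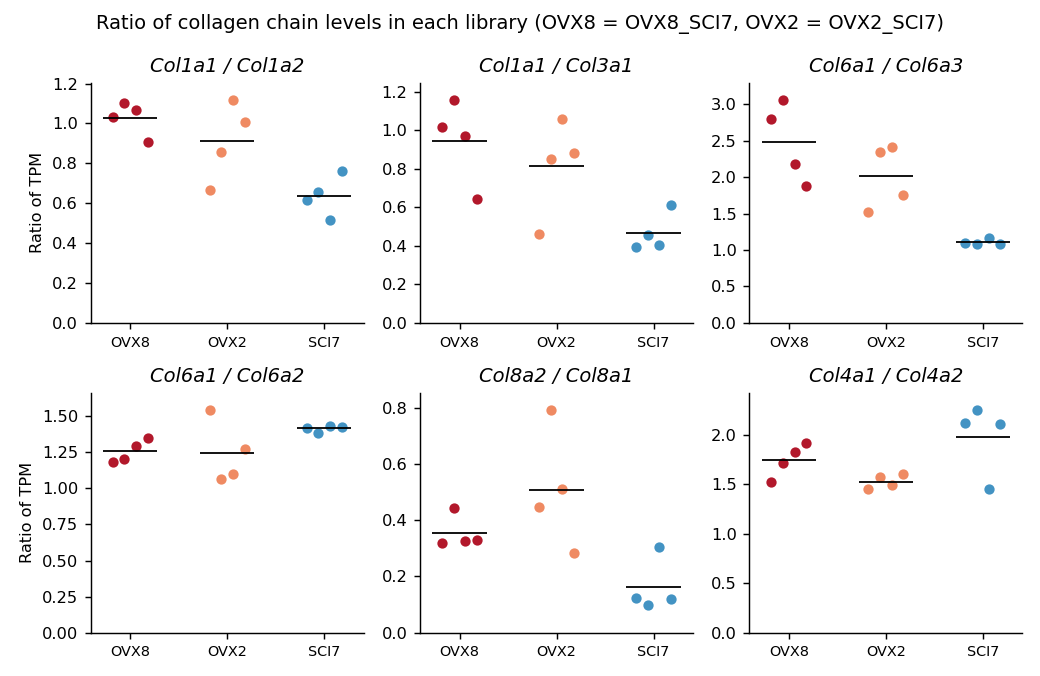
Ratio of TPM between 2 chains (y axes) in each library for 6 pairs of collagen genes, with a dot for each library and a line for the group mean, in the order OVX8_SCI7, OVX2_SCI7, SCI7. The Col6a1 to Col6a3 ratio of the SCI7 libraries lies within 1.08 to 1.17, below all 8 libraries of the ovariectomised groups, and the Col1a1 to Col1a2 ratio is higher in each OVX8_SCI7 library than in each SCI7 library.

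In OVX2_SCI7 against SCI7, no collagen was called, and edgeR called 0 of 17820 genes (0% in each direction). At an unadjusted p under 0.05 there were 11 members and 5787 genes, 32.5% of all, and DESeq2 called 7 members higher, namely Col11a2, Col16a1, Col26a1, Col6a5, Col6a6, Col9a2 and Col9a3, beside 11.1% of all genes. The groups did not overlap in CPM for 3 members, Col11a2, Col9a3 and Col6a6, all higher in OVX2_SCI7, against 6.13% of all genes in that direction and 6.29% in the other. Without OVX2_SCI7 replicate 1, edgeR called 13 members higher, beside 17.1% of all genes.

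OVX8_SCI7 against OVX2_SCI7 compares the longer with the shorter interval after ovariectomy, together with the difference in age named above. Here edgeR called no member and 0 of 17820 genes (0% in each direction), and DESeq2 called no member and 3 genes in each direction. At an unadjusted p under 0.05 there was 1 member, Col4a3, at -0.83 (SE 0.38), against 393 genes or 2.21% of all. The 3 most abundant members had differences smaller than their errors, with 0.30 for Col3a1 (SE 0.90), 0.23 for Col1a2 (SE 0.86) and 0.15 for Col1a1 (SE 0.95). Col11a2 differed by 0.04 (SE 0.25). A joint test of the 3 groups called 2 of 43 members, Col11a2 (edgeR adjusted p = 0.029) and Col9a3 (edgeR adjusted p = 0.0325), which is 4.65%, against 14.8% of all genes, and none with the GC and length offset.

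The machinery that makes and reads collagen was examined as a list. Of 41 genes listed for prolyl and lysyl hydroxylation, chaperoning and export, propeptide removal, cross-linking and collagen receptors, 40 were tested, and in OVX8_SCI7 against SCI7 1 was called higher and 1 lower, beside 11.9% and 15.6% of all genes, with a median of 0.40. Ddr1, a receptor kinase that binds collagen, had 139, 181, 186 and 136 TPM in OVX8_SCI7, 118, 223, 118 and 148 TPM in OVX2_SCI7, and 79.2, 102, 79.4 and 125 TPM in SCI7, a difference of 0.75 (SE 0.20, edgeR adjusted p = 0.0209). OVX8_SCI7 lay above SCI7 in every library.
Sec23a, a coat protein of the vesicles that carry procollagen out of the endoplasmic reticulum, had 26.4, 29.9, 32.3 and 37.3 TPM in OVX8_SCI7, 47.0, 38.4, 23.4 and 24.6 TPM in OVX2_SCI7, and 56.2, 61.5, 61.8 and 54.6 TPM in SCI7. It was lower in both ovariectomised groups than in SCI7 without overlap, and the OVX8_SCI7 difference was -0.89 (SE 0.17, edgeR adjusted p = 0.0143). With the GC and length offset neither passed, at adjusted p of 0.900 for Ddr1 and 0.179 for Sec23a. The most abundant gene of each of the other roles did not pass: Ppib, a prolyl isomerase, differed by 0.50 (edgeR adjusted p = 0.284), Plod1, a lysyl hydroxylase, by 0.78 (edgeR adjusted p = 0.103), Pcolce, an enhancer of propeptide removal, by 1.18 (edgeR adjusted p = 0.173) and Loxl1, a cross-linking oxidase, by 1.53 (edgeR adjusted p = 0.146). The role medians in OVX8_SCI7 against SCI7 were 0.40 for prolyl hydroxylation, 0.50 for lysyl hydroxylation, 0.77 for propeptide removal and 0.13 for cross-linking. Each of these roles also held estimates below 0, such as -0.75 for Plod2, a lysyl hydroxylase, and -0.80 for Lox, a cross-linking oxidase. No listed gene was called in OVX2_SCI7 against SCI7 or in OVX8_SCI7 against OVX2_SCI7.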

How the data were processed

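RNA was measured in 12 libraries, 4 per group. 3 per-gene tables were used as deposited: expected counts, TPM and FPKM, all made by the authors, and their 9 group-mean columns (3 per table) were not used. The submitters' processing notes list fastp 0.23.4, HISAT2 2.2.1, RSEM 1.3.3, DESeq2 1.42.0, edgeR, limma and the build GRCm39. The annotation, the library kit and the use of strand are not given in the sources used here. TPM and FPKM are the authors' values, and FPKM served only as another unit for summed levels.

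Expected counts, which the authors deposited, not all whole, were rounded to whole numbers. Genes passed edgeR's filterByExpr, libraries were scaled by TMM, and edgeR 4.0.16 (R 4.3.3) quasi-likelihood tests were fitted on all 12 libraries together, with p-values adjusted by Benjamini-Hochberg over 17820 genes. Standard errors come from the estimate and its F statistic. Alternatives used DESeq2 1.42.0, limma 3.58.1 and a GC and length offset (GENCODE vM21 transcripts, available for 97.9% of tested genes). The joint test was repeated under edgeR settings only. The fits were tested on simulated data. Totals of 18222809 to 31781728 counts set the precision; 3 counts, the limit that a count of 0 allows, are 0.0944 to 0.165 CPM. Rows without a symbol, 0.0786 to 0.158% of counts, stayed in the tests under their gene identifiers. Figures were drawn with matplotlib 3.10.9 in Python 3.11.15.

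The members and gene lists were chosen with earlier results of these data known. Members were named if tested and fibrillar or basement membrane, or, in other classes, if called, or otherwise among the 2 with the highest mean TPM, and 27 were named so; the other members, and all sequences, were named after their values were seen. Pathway genes were named if called, or otherwise as the 1 with the highest level in its role. P-values measure the spread between these libraries, which the labels call biological replicates.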

Additional observations from a re-analysis of the deposited data

Results flagged for a closer look

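In each of the 44 genes and 3 groups, 132 sets of 4 libraries in all, the gap between the most extreme library and its nearest neighbour was set against the whole range, and 18 sets, in 16 genes, exceeded Dixon's critical value at the 95% level. Chance alone flags about 1 in 20 groups, and the genes share libraries, so the flags are not independent. Libraries of OVX2_SCI7 stood out by high values in replicate 3 for Col12a1 (245.6 TPM), Col14a1 (112.8 TPM), Col8a2 (74.73 TPM) and Col11a1 (69.29 TPM), in replicate 4 for Col10a1 (25.97 TPM) and in replicate 2 for Col23a1 (22.76 TPM). In the same group the low values were Col13a1 (1.04 TPM) and Col2a1 (0.81 TPM) in replicate 1 and Col17a1 (0.05 TPM) in replicate 2. In OVX8_SCI7, replicate 4 was far above the others for Col3a1 (2266 TPM), Col6a3 (183.7 TPM), Col15a1 (71.66 TPM) and Col4a6 (7.58 TPM). Replicate 3 of OVX8_SCI7 was low for Col10a1 (10.34 TPM) and high for Col19a1 (0.72 TPM), and replicate 1 was low for Col28a1 (4.12 TPM). In SCI7, Col6a5 was high in replicate 2 (1.63 TPM) and Col19a1 in replicate 3 (1.24 TPM).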

How the results depend on the processing

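No result reversed its direction while called. Of the members called higher in OVX8_SCI7 against SCI7 (6 in the reported fit), DESeq2 called 11, the 8 libraries of the comparison alone 19 and the fit without OVX2_SCI7 replicates 1 and 2 18, beside 16.5%, 20.4% and 20.5% of all genes and 11.9% in the reported fit. The GC and length offset, the same offset with the replicate block, and DESeq2 with that offset (added after seeing the data) called 0 members. These 3 settings called 0%, 0% and 1.64% of all genes higher. Leaving out 1 library gave 0, without OVX8_SCI7 replicate 2, to 13, without OVX2_SCI7 replicate 1 or replicate 3 (17.3% and 15.2% of all genes). Members called lower were 0, against 1 by DESeq2, 2 in the 8 libraries, 2 without OVX2_SCI7 replicates 1 and 2, and 0 to 1 with 1 library left out. Of all genes, 19.5%, 22.5%, 21.4% and 0 to 19.9% were called lower in the same order, against 15.6% in the reported fit. In OVX2_SCI7 against SCI7 the 0 higher members became 3 with the stricter filter, 7 by DESeq2, 1 by limma-voom, 2 with protein-coding nuclear genes only, 21 (and 1 lower) without OVX2_SCI7 replicates 1 and 2, and 0 to 13 with 1 library left out, beside 3.47%, 11.1%, 1.6%, 1.78%, 19.9% and up to 17.1% of all genes. Without OVX2_SCI7 replicates 1 and 2, 18.9% of all genes were called lower. In OVX8_SCI7 against OVX2_SCI7 no setting called a member. The joint test called 2 members, 0 with the offset, with the replicate block or with both, 18 without OVX2_SCI7 replicates 1 and 2, and 0 to 11 with 1 library left out, beside 14.8% of all genes in the reported fit, 41.1% for the 18 and 33.5% for the 11. The cause of these shifts was not tested.

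For the collagen machinery in OVX8_SCI7 against SCI7, the 1 higher gene became 4 by DESeq2, 3 and 2 by limma on log2 TPM with pseudocounts of 1 and 0.1, 10 in the 8 libraries, 8 without OVX2_SCI7 replicates 1 and 2, 0 with any of the 3 offset settings, and 0 to 5 with 1 library left out. Of all genes, 16.5%, 7.68%, 7.48%, 20.4% and 20.5% were called higher in the settings before the offset, in turn. The share was 0 to 1.64% with the offset settings and 0 to 17.3% with 1 library left out, against 11.9% in the reported fit. The 1 lower gene became 2 in the 8 libraries, 2 without OVX2_SCI7 replicates 1 and 2, 0 with the offset with or without the replicate block, and 0 to 1 with 1 library left out. Of all genes, 22.5%, 21.4%, 0 to 0.00561% and 0 to 19.9% were called lower in the same order, against 15.6% in the reported fit. In OVX2_SCI7 against SCI7 the 0 higher genes became 1 by DESeq2, 12 without OVX2_SCI7 replicates 1 and 2, and 0 to 4 with 1 library left out. Of all genes, 11.1%, 19.9% and 0 to 17.1% were called higher in the same order. The 0 lower genes became 1 with the stricter filter, 1 by DESeq2, 1 by limma-voom, 1 with protein-coding nuclear genes only, 2 without OVX2_SCI7 replicates 1 and 2, and 0 to 1 with 1 library left out. Of all genes, 4.5%, 9.66%, 3.41%, 2.98%, 18.9% and 0 to 17.6% were called lower in the same order. The ratio of summed basement membrane levels in OVX8_SCI7 over SCI7, 2.13, was 1.68 to 2.97 with 1 library left out, the highest without SCI7 replicate 4.

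Replicate numbers did not pair the libraries: over 12937 genes, same-numbered libraries correlated between -0.762 and 0.670, and 3 of 12 matched their own number best. The replicate block gave 4 members higher in OVX8_SCI7 against SCI7, beside 7.22% of all genes. Across 68 single-gene results, 279 values that were not called in either setting changed sign. Depth limits the members under 1 TPM.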
